A study of Mus musculus with 18 samples.

Results

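Tetraspanins are small membrane proteins that cross the membrane several times and gather integrins, co-receptors and other partners into organised patches of the cell surface. The 10 genes described here are Tspan32, Cd81, Cd53, Cd37, Cd82, Cd9, Tspan13, Tspan31, Cd151 and Cd63, chosen by name out of the 38392 genes of the deposited table, and Tspan32 and Cd81 were chosen because they are high in regulatory cells. Each name matched 1 row, and all 10 passed the filter on low values (at least 10 normalised counts in at least 3 of the 18 libraries). On leukocytes the family includes CD81, which costimulates T cells and is also found on B cells, CD37 and CD53, which are found mainly on blood cells, and CD63, which marks late endosomes and lysosomes. The product of Tspan32 is found on blood cells and restrains the proliferation of mouse T cells.

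RNA was sequenced from mouse CD4 T cells sorted from the small intestine, 3 libraries in each of 6 groups. Donors were C57BL/6 TNa TNb RAG1-/- Foxp3GFP mice, whose T cells carry a T-cell receptor of 1 clone, and the cells transferred had CD4 but neither CD8α nor the Foxp3 reporter. Hosts were C57BL/6 TCRa-/- TCRb-/- mice, which lack αβ T cells of their own but keep B cells, and cells were taken 6 weeks after transfer. From the epithelium (intraepithelial lymphocytes, IEL) and from the lamina propria beneath it (LP), the sorted populations were CD4+Foxp3+ regulatory cells (TR), CD4+CD8α+ cells (DP) and CD4+CD8α-Foxp3- cells (SP). Donor, host and time were the same in all 6 groups, the cells of every group carried the same receptor, and the ages of the animals are not given in the sources used here. The labels call the libraries biological replicates without naming the animals, so p-values measure only the spread between these libraries.

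Recovered reads ran from 5093955 to 8851347 per library. Libraries of IEL TR varied more among themselves (Pearson r from 0.8045 to 0.8727) than those of any other group (0.9238 to 0.9438), and therefore each comparison was fitted on its own groups. The T-cell markers Cd3e, Cd3d, Cd3g, Thy1 and Lck summed to 13126 to 21512 normalised counts in each library. The sort genes followed the labels: Foxp3 ran from 66.19 to 163.61 in TR libraries, against 0 to 39.88 in DP and SP libraries, and Cd8a from 3363.92 to 6443.51 in DP libraries, against 3.15 to 113.16 in TR and SP libraries. In sorted bulk RNA, fewer cells with a transcript and less of it per cell cannot be told apart. Values below are normalised counts, ± after a mean is the SD over 3 libraries, and ± after a log2 fold change is its standard error, with the first-named group over the second on the log2(normalised count + 1) scale.

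Per kilobase of exon, the scale on which different genes can be set side by side, the family spanned a wide range. Cd53 was the most abundant, with a mean of 8247 normalised counts per kilobase over the 18 libraries. Tspan13 followed at 643 and Cd82 at 604, and Cd37 stood at 299. Tspan32 averaged 105 per kilobase, Cd9 87.3, Tspan31 63.1 and Cd81 50.8. Cd151 at 8.86 and Cd63 at 1.38 per kilobase were at the bottom. The ranks of Tspan32 and Cd81 in this order depend on the group, since nearly all of their RNA was in the TR libraries.

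**Figure D1:**
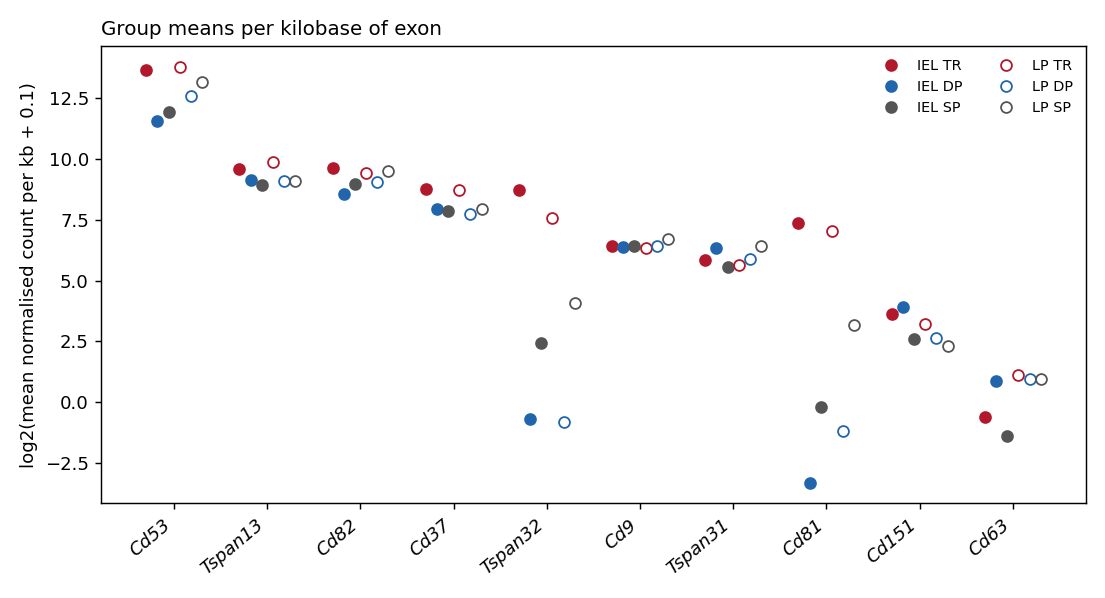
Mean level of each of the 10 tetraspanins in each group, as log2 of normalised counts per kilobase of exon plus 0.1, with genes ordered by their mean over all 18 libraries. Filled points are IEL groups and open points LP groups. Cd53 lies above the other genes in every group, and Tspan32 and Cd81 spread over the widest range between groups.

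Tspan32 and Cd81 lie next to each other on chromosome 7, both on the plus strand. In GENCODE M21 (GRCm38), Tspan32 (ENSMUSG00000000244) spans chr7:143005046-143019644 and Cd81 (ENSMUSG00000037706) spans chr7:143052739-143067934, 33094 bases apart with 0 annotated genes between them. Their promoters are shown because the genes are neighbours and were both chosen as high in TR. Over the 18 libraries their levels had a Pearson r of 0.92 on the log2 scale. That r follows largely from the choice and is a description only, and the points also share groups and library preparation. Within the TR groups the spread of the neighbours was unlike, as given below. The sequences are from RefSeq on GRCm38.p6, plus strand, 300 bases around the annotated start, at chr7:143004796-143005095 for Tspan32 and chr7:143052500-143052799 for Cd81. Capitals mark matches, on either strand, to TGTGGT (named for Runx factors), to CCGGAA (named for Ets factors) and to TATAAA (the TATA box). Positions are counted from the RefSeq start site of the window, with negative ones before it. For Cd81 this start lies after the GENCODE start given above.
Tspan32: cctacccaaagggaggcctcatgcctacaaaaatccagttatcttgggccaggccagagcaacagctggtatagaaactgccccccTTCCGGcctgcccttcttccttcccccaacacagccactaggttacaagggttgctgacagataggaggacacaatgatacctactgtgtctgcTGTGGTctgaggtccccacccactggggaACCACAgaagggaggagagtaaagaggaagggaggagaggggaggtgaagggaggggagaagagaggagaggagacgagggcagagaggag
Cd81: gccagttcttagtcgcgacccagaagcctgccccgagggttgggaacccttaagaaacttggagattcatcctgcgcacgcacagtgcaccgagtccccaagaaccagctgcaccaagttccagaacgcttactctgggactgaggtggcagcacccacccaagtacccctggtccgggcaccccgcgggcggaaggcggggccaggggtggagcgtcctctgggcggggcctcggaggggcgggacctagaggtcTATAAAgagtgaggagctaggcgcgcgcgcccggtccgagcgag
The Tspan32 window held TGTGGT at position -70 on the given strand and at -41 on the reverse strand, and CCGGAA at -164 on the reverse strand, with no overlap between them. The Cd81 window held TATAAA from its base 257, at position 7 after the RefSeq start. TGTTTAC (forkhead) was in neither window. Of 32851 mouse promoter windows of this length, 16.76% held TGTGGT on either strand, 14.9% CCGGAA, 13.62% TATAAA and 3.65% TGTTTAC. The windows also differed in composition: that of Cd81 had 65.7% GC and 23 CpG, and that of Tspan32 had 56.7% GC and 2 CpG, where the medians over all windows were 52.7% and 7.

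Tspan32 was at its highest in regulatory cells of the epithelium. It had 3147.56, 2467.93 and 2218.5 normalised counts in the 3 IEL TR libraries and 1153.11, 1084.36 and 1329.48 in the LP TR libraries. In DP cells it had 3.21, 1.65 and 4.65 in IEL and 3.09, 0 and 5.65 in LP. In SP cells it had 28.04, 29.81 and 40.72 in IEL and 105.45, 111.96 and 95.04 in LP. Ordered by mean the groups ran IEL TR, LP TR, LP SP, IEL SP, IEL DP and LP DP, and only the last pair overlapped. Tspan32 in TR cells, 2611 ± 480.8 in IEL and 1189 ± 126.4 in LP, was thus above the 4 other groups, as its choice required. The ratio of means was 79.5 for IEL TR over IEL SP and 11.4 for LP TR over LP SP. Over DP cells it was 824 in IEL and 408 in LP, where IEL DP had 10 recovered reads and LP DP had 9. On so few reads the LP ratio was 770 without LP DP library 3 and 272 without LP DP library 2. The log2 fold change over SP was 6.27 ± 0.24 in IEL and 3.50 ± 0.16 in LP, and it ran from 6.13 to 6.43 and from 3.42 to 3.56 with any 1 library left out, the lowest value in IEL being without IEL TR library 1.

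Cd81 followed the same order of populations but with a much wider spread among TR libraries. It had 335.14, 91.43 and 996.84 normalised counts in IEL TR and 181.73, 100.73 and 842.49 in LP TR. It was at 0 in all 3 IEL DP libraries and had 2.06, 0.85 and 0 in LP DP. SP cells had 5.01, 0 and 1.7 in IEL and 28.12, 26.87 and 22.02 in LP. Every TR library stood above every DP and SP library, and the 3 LP SP libraries stood above every IEL SP and DP library. IEL TR was at least 167-fold higher than IEL DP, with IEL DP set to a floor of 3 reads per library, and at least 75-fold without IEL TR library 3. The log2 fold change over SP was 6.96 ± 1.05 in IEL, with 6.12 without IEL TR library 3 and 7.84 without IEL TR library 2, and without IEL SP library 1 or 2 it was 7.58 or 6.29. In LP it was 3.24 ± 0.69, with 2.36 without LP TR library 3 and 3.89 without LP TR library 2. LP TR over LP DP gave a ratio of 395, with a 95% interval from 135 to 1918 that covers counting error only, from 941 reads against 3. As a ratio of group means it was 387, and it was 146 without LP TR library 3, 882 without LP DP library 1 and 258 without LP DP library 3.

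**Figure D2:**
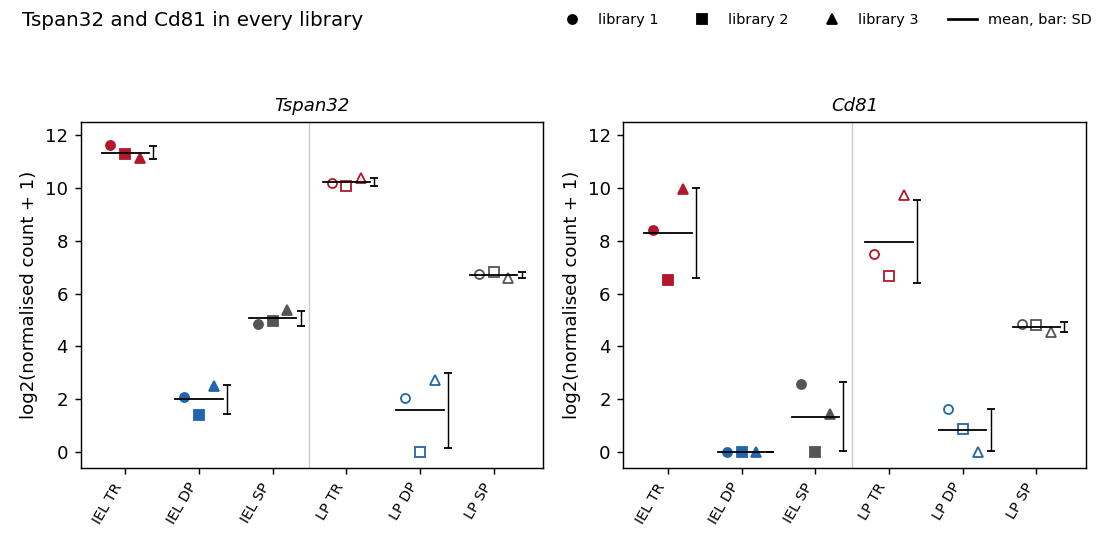
Tspan32 and Cd81 in each of the 18 libraries as log2(normalised count + 1), by group, with marker shape for the library number, a line for the mean and a bar for the SD. TR libraries lie above the others for both genes, and Cd81 spreads over 91.43 to 996.84 normalised counts within IEL TR.

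Within the TR groups the spread of the neighbours was unlike. The highest TR library exceeded the lowest 10.9-fold in IEL and 8.36-fold in LP for Cd81, and 1.42-fold and 1.23-fold for Tspan32. For Cd81, library 3 was the highest and library 2 the lowest in both sites. Of 15472 genes tested, 384 (2.48%) had in both TR groups at least the smaller of the 2 Cd81 ranges, that of LP, with 1 added to each value. The same order of library numbers in both was found for 3043 genes (19.7%). The TR libraries also held transcripts of B cells, in which Cd81 is known to be expressed. Ighm, the IgM heavy chain, had 576.77, 931.49 and 1431.66 in IEL TR and 477.04, 692.65 and 455.33 in LP TR, against 0 to 30.14 in the DP and SP libraries. Ms4a1, which encodes CD20, had 1.05, 2.06 and 123.73 in IEL TR and 0, 0 and 6.09 in LP TR, against 0 to 6.39 in the DP and SP libraries. Cd79a, a chain of the B-cell receptor, had 2.1, 0.69 and 77.55 in IEL TR and 3.25, 6.22 and 20.7 in LP TR. Cd79b, another such chain, had 0, 103.12 and 58.38 in IEL TR and 80.05, 93.27 and 58.44 in LP TR, and Igj, the joining chain, reached 471.3 in LP TR library 2. Sdc1, a plasma cell marker, was at 1.05 or below in every TR library. Together these 6 markers summed to 581 to 1691 in IEL TR and 543 to 1263 in LP TR, against 4.68 to 52.2 in the DP and SP libraries. Their part in the Cd81 values was not tested.

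The genes whose pattern over the 18 libraries was closest to Tspan32, among 9394 genes compared by Pearson r on the log2 scale, were Rgs10 (0.97), Tiam1 (0.96), Maf (0.96), Art2a-ps (0.96) and Folr4 (0.95). Those closest to Cd81 were Folr4 (0.95), Tbc1d30 (0.94), Cd2 (0.94), Rgs10 (0.94) and Maf (0.94). Maf, which encodes a transcription factor active in regulatory and helper T cells, had 3350.41 to 4065.78 in IEL TR, against 128.25 to 139.98 in IEL DP and 479.35 to 619.66 in IEL SP. Of the 10 protein-coding genes around the pair on chromosome 7, 5 on each side, 9 were in the table and 2 passed the filter on low values. Of these Tssc4 was higher in LP TR than in LP SP (1.14 ± 0.24, limma adjusted p = 0.0337), with 140.62, 130.57 and 118.09 against 48.04, 62.7 and 64.91. In IEL TR it had 2.1, 181.49 and 264.9, so library 1 stood far below the others.

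Set against SP cells, 6 of the 10 tetraspanins had all IEL TR libraries above all IEL SP libraries and 0 had all below, where 12.6% of all genes tested lay above. In LP TR against LP SP, 5 lay above and 0 below, where 13.4% of all genes lay above. IEL TR against IEL DP gave 5 above (all genes 13.6%) and 1 below (all genes 12.1%), and LP TR against LP DP gave 6 above (16.6%) and 0 below. The counts above include Tspan32 and Cd81, and the choice of members used this difference, so they carry no test. The 1 of 10 below in IEL TR against IEL DP was near the share of all genes. For the counts of 0 below no such share is given, and they are not read as a result about the members. The TR groups are shared between these comparisons, and so are the SP and DP groups with those below.

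Cd53, the most abundant of the family, had 21417.3, 24061.28 and 21996.79 normalised counts in IEL TR and 24421.9, 26999.64 and 23131.92 in LP TR. DP cells had 5307.56, 5513.17 and 4892.15 in IEL and 10532.81, 10866.23 and 10902.6 in LP. SP cells had 7356.24, 8122.71 and 4940.31 in IEL and 16003.39, 15253.56 and 16873.36 in LP. The gene (ENSMUSG00000040747, chr3:106759921-106790149, minus strand) thus had 4 tiers without overlap between them, with TR of both sites on top, then LP SP, then LP DP, then the IEL SP and IEL DP libraries, which overlapped each other. The ratio of means was 3.30 for IEL TR over IEL SP, 4.29 for IEL TR over IEL DP, 1.55 for LP TR over LP SP and 2.31 for LP TR over LP DP.

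Cd37, a leukocyte tetraspanin (ENSMUSG00000030798, chr7:45233632-45239115, minus strand), separated TR from the rest with little else between groups. It had 1462.42, 1811.42 and 1315.76 in IEL TR and 1365.13, 1750.9 and 1361.13 in LP TR. The 12 DP and SP libraries ran from 666.82 to 1015.06, below every TR library. The ratio of means was 1.86 for IEL TR over IEL SP and 1.71 for LP TR over LP SP, and 1.78 and 2.00 over DP in IEL and LP. Both Cd37 and Cd53 are known from B cells as well as T cells. The summed level of the 6 B and plasma cell markers given with Cd81 also lay higher in every TR library than in any DP or SP library, and their part in these values was not tested.

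Tspan13 (ENSMUSG00000020577, chr12:36014557-36042500, minus strand) had 1606.35, 2057.52 and 2053.81 in IEL TR and 2189.39, 2382.61 and 2360.67 in LP TR. DP libraries had 1219.23 to 1673.07 in IEL and 1189.43 to 1577.44 in LP, and SP libraries had 925.62 to 1364.96 and 1203.09 to 1506.92. LP TR lay above every other group, and IEL TR overlapped IEL DP. Cd82, a tetraspanin known as a suppressor of metastasis (ENSMUSG00000027215, chr2:93419111-93463140, minus strand), averaged 2408 ± 377.4 in IEL TR, 1142 ± 148.9 in IEL DP and 1531 ± 450.3 in IEL SP. In LP it averaged 2039 ± 191 in TR, 1580 ± 251.5 in DP and 2184 ± 478.8 in SP. All IEL TR libraries were above the other IEL libraries, whereas LP TR overlapped LP SP, with a ratio of means of 0.934.

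The remaining 4 members showed no separation of both TR groups from the rest. Cd9, which organises integrins and membrane fusion (ENSMUSG00000030342, chr6:125460266-125494791, minus strand), had 180.7, 133.36 and 205.64 in IEL TR, and group means over all 6 groups lay between 165 and 216, with every neighbouring pair of groups overlapping. Tspan31 (ENSMUSG00000006736, chr10:127067280-127070264, minus strand) had 128.17, 138.18 and 112.41 in IEL TR, below 163.49, 183.69 and 181.36 in IEL DP. It shares 641 exon bases with Cdk4 on the opposite strand, and the library kit named in the labels does not mark strand, so its reads cannot be told apart from those of Cdk4 there. Cd151, a partner of laminin-binding integrins (ENSMUSG00000025510, chr7:141467392-141471473, plus strand), ran from 2.1 to 81.81 over all libraries, and both extremes were in IEL TR. Cd63, the late endosomal tetraspanin (ENSMUSG00000025351, chr10:128900989-128912822, plus strand), had 0 to 20.39 in any library, near or below the floor of 3 reads in most, and no difference was detectable at this depth.

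**Figure D3:**
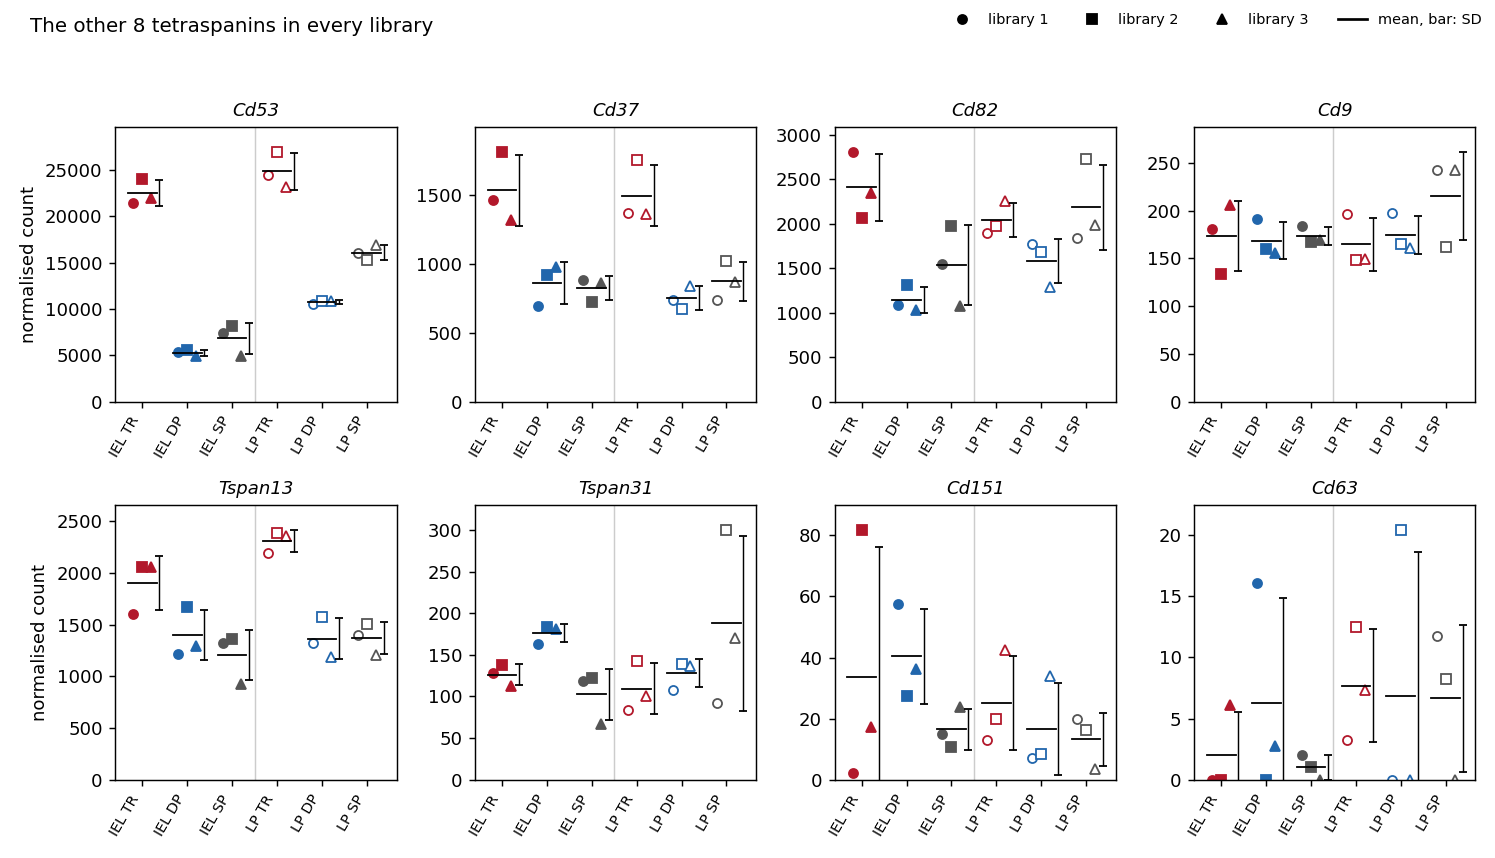
The other 8 tetraspanins in each of the 18 libraries in normalised counts on linear axes from 0, by group, with marker shape for the library number, a line for the mean and a bar for the SD. Cd53 shows the 4 tiers given in the text, Cd37 separates TR libraries from the 12 others, and Cd9 lies between 133.36 and 242.53 throughout.

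The comparison of DP with SP cells asks what accompanied the gain of CD8α, and the members were not chosen on it. In the lamina propria, 2 of the 10 tetraspanins were lower in DP and 0 higher, where 0.291% of 15451 genes were called and 0.175% were lower (limma with Benjamini-Hochberg adjustment over all genes tested). Tspan32 was lower, at 2.91 ± 2.83 in LP DP and 104.2 ± 8.53 in LP SP (-5.12 ± 0.68, limma adjusted p = 0.0314). Cd53 was lower as well, at 10767 ± 203.8 in LP DP and 16043 ± 810.6 in LP SP (-0.57 ± 0.07, limma adjusted p = 0.0248). All 3 LP DP libraries lay below all 3 LP SP libraries for both genes. For Tspan32 this rests on 9 reads in LP DP against 322 in LP SP, a ratio of 0.0266 with a 95% counting interval from 0.0121 to 0.0512. With a pseudocount of 0.5 the adjusted p of Tspan32 was 0.078, with the replicate number as a block it was 0.0597, and without single libraries it ran from 0.018 to 0.169. The call of Tspan32 was lost without LP DP library 1 or any LP SP library. That of Cd53 was lost in 1 fit over all 18 libraries (0.0996) and without any 1 library other than LP SP library 2, with adjusted p from 0.0476 to 0.131.

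Cd81 in the lamina propria was lower in DP by a comparable size without passing the test. LP DP had 3 reads over its 3 libraries and LP SP 79, a ratio of 0.0362 with a 95% counting interval from 0.0073 to 0.11 (-3.90 ± 0.62, limma adjusted p = 0.0697). All LP DP libraries lay below all LP SP libraries. DESeq2 on the recovered reads called it (adjusted p = 0.00161), as did limma without the filter on low values (0.021). Cd82 was also below in all libraries (-0.46 ± 0.18, limma adjusted p = 0.517). In all, 4 of 10 members had LP DP entirely below LP SP, where 7.98% of all genes did. The median log2 fold change was -0.43 over the members and -0.01 over all genes tested. Of 5 stromal and endothelial markers, Pecam1 had 11.34, 58.61 and 32.96 in LP DP against 98.42, 93.3 and 114.75 in LP SP, while the others were at 11.59 or below in each of these libraries and Cdh5, the defining endothelial cadherin, was at 0. The part of other cells in these results was not tested.

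In the epithelium 0 of the 10 tetraspanins were called between DP and SP, where 0.0583% of 15438 genes were (9 genes with limma, 1161 at an unadjusted p under 0.05, 9 with edgeR and 132 with DESeq2). Tspan32 had no overlap there either, with 3.17 ± 1.50 in IEL DP and 32.9 ± 6.87 in IEL SP, 10 reads against 104 (-3.07 ± 0.45, limma adjusted p = 0.123). It passed in 1 limma fit over all 18 libraries (0.037) and with DESeq2 (0.00329). Tspan31 and Cd151 had all IEL DP libraries above all IEL SP libraries (0.82 ± 0.27 and 1.25 ± 0.42, limma adjusted p = 0.529 and 0.546), where 6.37% of all genes lay above and 6.34% below. Cdk4, which overlaps Tspan31, ran from 362.24 to 517.14 in IEL DP, against 361.5 to 544.07 in IEL SP. Cd81 was at 0 in IEL DP and at 7 reads in IEL SP, and 0 reads allow a ratio of up to 0.672. The median log2 fold change was 0.00 over the members and 0.00 over all genes.

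Whether the DP difference depended on the site was asked with the interaction, DP minus SP in IEL less DP minus SP in LP. For this term 0 of 10 members were called, as for all genes (0% of 15469 with limma, 1002 genes at an unadjusted p under 0.05, 0 with edgeR and 46 with DESeq2). Tspan32 had 2.05 ± 0.84 (limma adjusted p = 0.738) and Cd81 2.56 ± 1.04 (limma adjusted p = 0.732). Both genes were at or near 0 in DP cells of either site, which limits the precision of these terms and sets a floor. The terms thus mostly carry the site difference of SP cells with its sign reversed. That difference, IEL over LP, was -1.65 for Tspan32 and -3.39 for Cd81. They cannot be read as a change in DP cells that depends on the site. Cd53 had 0.23 ± 0.20 (limma adjusted p = 0.894).

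Between the sites, SP cells showed the most tetraspanin differences: 3 of 10 members were lower in IEL SP than in LP SP and 0 higher, where 6.36% of 15458 genes were called and 3.89% were lower. Cd53 averaged 6806 ± 1661 in IEL SP and 16043 ± 810.6 in LP SP (-1.27 ± 0.18, limma adjusted p = 0.00666). Tspan32 averaged 32.9 ± 6.87 in IEL SP and 104.2 ± 8.53 in LP SP (-1.65 ± 0.27, limma adjusted p = 0.0113). Cd81 averaged 2.24 ± 2.55 in IEL SP and 25.7 ± 3.22 in LP SP (-3.39 ± 0.72, limma adjusted p = 0.033), from 7 reads against 79, a ratio of 0.0869 with a 95% counting interval from 0.0338 to 0.188. For these 3 genes every IEL SP library lay below every LP SP library. The Cd53 call held in each alternative run, that of Tspan32 was lost in 1 fit over all 18 libraries (0.0723), and that of Cd81 was lost with the replicate block (0.0578) and without IEL SP library 2 or 3 or any LP SP library (up to 0.0914). The median log2 fold change was -0.65 over the members and 0.03 over all genes. Pecam1 had 30.04, 74.53 and 16.12 in IEL SP, with Cdh5 at 0 in both groups. Of the myeloid markers, Lyz2 had 0, 3.19 and 0.85 in IEL SP against 49.21, 314.97 and 26.66 in LP SP, while Itgax had 12.02, 13.84 and 60.24 against 5.86, 8.96 and 2.32. Epithelial markers summed to 348 to 697 in IEL SP and 132 to 396 in LP SP. Most of the LP SP sum was Cdh1, at 183.95, 93.3 and 282.81, and Epcam, at 65.61, 25.38 and 88.09. Krt18 ran from 7.03 to 20.86 in LP SP, and Krt19, Fabp1 and Apoa1 were at 0 in each LP SP library. The part of other cells in these differences was not tested.

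Among DP cells only Cd53 passed, 1 of 10 members where 7.6% of 15445 genes were called and 4.23% were lower. It averaged 5238 ± 316.4 in IEL DP and 10767 ± 203.8 in LP DP (-1.04 ± 0.06, limma adjusted p = 0.000266), every IEL library below every LP library. This call held in each alternative run. Cd82 was lower in IEL DP by 0.46 ± 0.15 on the log2 scale without passing (limma adjusted p = 0.117), although DESeq2 called it (0.0229). Tspan31 and Cd151 had 0.46 ± 0.19 and 1.50 ± 0.60 (limma adjusted p = 0.19 and 0.179), and Cd151 passed without LP DP library 3 (0.0477). Epithelial cells are known to express CD9 and CD151, and Fabp2, an enterocyte gene, had 28.85, 57.92 and 508.75 in IEL DP against 3.09, 0 and 0 in LP DP. Not all markers of this list followed Fabp2. Krt18 had 0, 12.41 and 32.55 in IEL DP against 30.92, 28.88 and 4.71 in LP DP. Cdh1 had 232.95, 246.57 and 403.65 in IEL DP against 274.2, 221.71 and 383.29 in LP DP. The 10 epithelial markers summed to 387 to 1172 in IEL DP and 256 to 439 in LP DP, where most of the sum was Cdh1. The part of epithelial cells in these values was not tested. Tspan32 and Cd81, at or near 0 in DP cells of both sites, showed no detectable difference at this depth.

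Among TR cells 0 of 10 members were called between the sites, where 0.661% of 15442 genes were (102 with limma, 2038 at an unadjusted p under 0.05, 76 with edgeR and 929 with DESeq2). Tspan32 came nearest, with every IEL TR library above every LP TR library (1.12 ± 0.17, limma adjusted p = 0.0562). It passed with libraries scaled to equal totals (0.041), with DESeq2 (1.888e-06) and without IEL TR library 1 (0.0418). Tspan13 lay below in all IEL TR libraries (-0.29 ± 0.13, limma adjusted p = 0.446). Cd53 differed by -0.14 ± 0.08 (limma adjusted p = 0.555) and Cd81 by 0.33 ± 1.10 (limma adjusted p = 0.939), the standard error of Cd81 carrying its spread within TR.

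**Figure D4:**
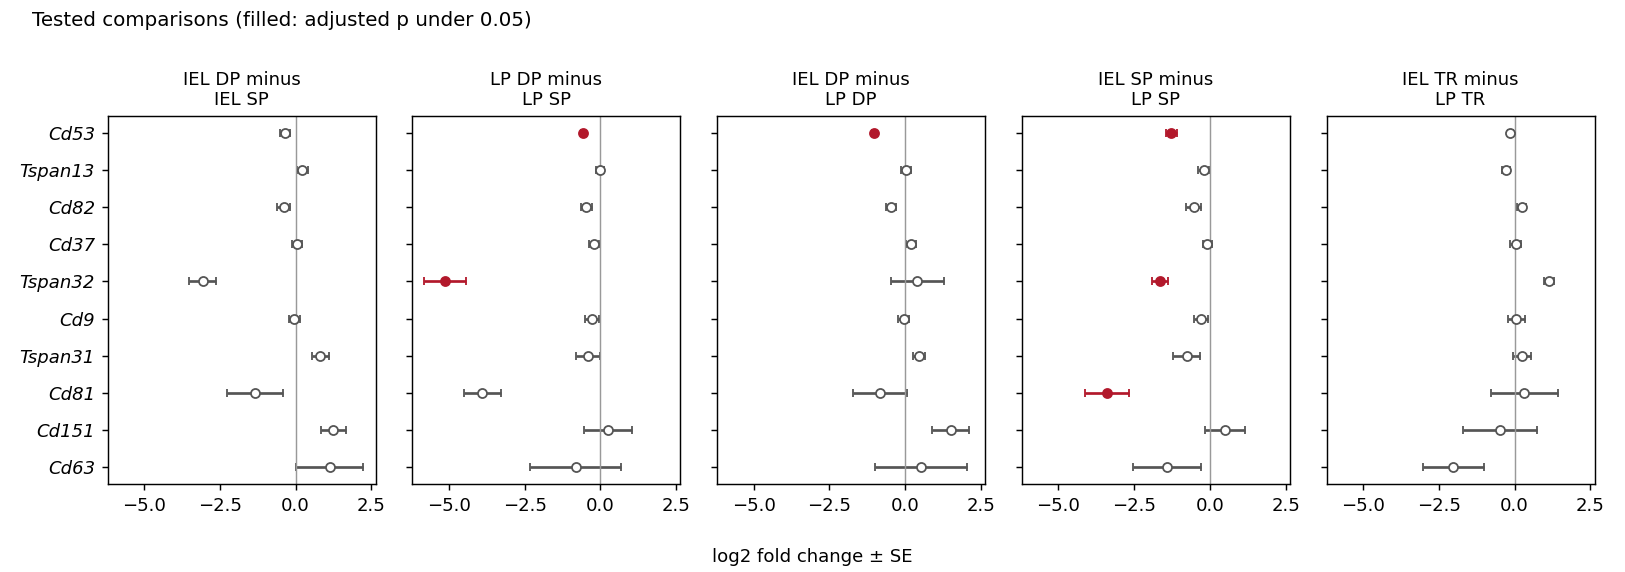
Log2 fold changes with standard errors of the 10 tetraspanins in the 5 comparisons between 2 groups that carry a test, with the first-named group over the second and filled points for a limma adjusted p under 0.05. Filled points are Tspan32 and Cd53 in LP DP against LP SP, Cd53 in IEL DP against LP DP, and Cd53, Tspan32 and Cd81 in IEL SP against LP SP.

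The difference between sites, IEL over LP, was also set side by side for TR and the other populations, in terms added after the values had been seen. These terms compare TR with SP or DP, by which Tspan32 and Cd81 were chosen, and they are given as a description with no p. For Tspan32 the site difference was 1.12 in TR and -1.65 in SP, 2.77 ± 0.28 apart, with every IEL TR library above every LP TR library and every IEL SP library below every LP SP library. For Cd53 it was -0.14 in TR, -1.04 in DP and -1.27 in SP, so that TR stood 0.90 ± 0.10 from DP and 1.12 ± 0.22 from SP. For Cd81 TR stood 3.72 ± 1.37 from SP.

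Of 21 other tetraspanins in the table, 9 to 11 were tested in each comparison. Between DP and SP 0 were called, where 0.0583% of all genes were in IEL and 0.291% in LP. Between sites 0 were called, where 7.6% of all genes were in DP, 6.36% in SP and 0.661% in TR. With so few genes tested, 0 calls at such shares are not read as a result about the family. In IEL TR 1 of 11 was called against IEL DP (4.13% of all genes) and 1 of 11 against IEL SP (2.96%). In LP TR 3 of 10 were called against LP DP (11.3%) and 2 of 10 against LP SP (5.93%). These counts include Tspan9 and Tspan17, whose calls carry no weight for the reason given with each gene. Tspan9, known from platelets, was lower in TR. It had 1.05, 0.69 and 1.74 in IEL TR, against 37.4, 99.29 and 92.08 in IEL DP and 53.07, 66.01 and 43.27 in IEL SP. In LP it had 1.08, 2.49 and 0 in TR, 52.57, 66.26 and 80.99 in DP and 0, 10.45 and 31.29 in SP. It was called for IEL TR against IEL DP (-5.07 ± 0.53, limma adjusted p = 0.00688), IEL TR against IEL SP (-4.68 ± 0.44, 0.00682) and LP TR against LP DP (-5.10 ± 0.56, 0.00169), and LP TR overlapped LP SP. Tspan9 passed the filter on low values through DP and SP libraries only. Its calls follow in part from that filter and carry no weight. The platelet markers Gp9 and Ppbp were at 0 in all libraries, and the 4 platelet markers summed to 33.1 at most.

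Tspan3 was lower in LP TR, with 603.6, 683.94 and 802.31, than in LP DP, with 1615.28, 1360.83 and 1585.9 (-1.13 ± 0.14, limma adjusted p = 0.0026), and than in LP SP (-0.89 ± 0.15, 0.0157). In IEL TR it had 179.65, 1022.92 and 795.56, below all other IEL libraries and with library 1 far down. Tspan17, which belongs to the group that binds the protease ADAM10, had 18.39, 16.17 and 7.3 in LP TR and 0 in every LP DP and LP SP library. It is among the genes called there, but it passed the filter on low values through TR libraries only, those of LP TR library 1 and 2 and IEL TR library 1 at 16.81, so it had to differ and its call carries no weight. The median over the other tetraspanins tested was -0.38 for IEL TR against IEL SP (all genes -0.05) and -0.31 for LP TR against LP SP (all genes -0.01).

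Known partners of tetraspanins on the cell surface were measured as a list of 15 genes, of which 11 were tested. Cd2, an adhesion receptor, was higher in TR in all 4 comparisons, with 2302.94 to 3157.83 in IEL TR, against 332.63 to 412.47 in IEL DP and 539.59 to 688.96 in IEL SP (2.78 ± 0.17 over DP, limma adjusted p = 0.0014, and 2.09 ± 0.17 over SP, 0.00453). In LP its values were 2887.1 to 3520.45 in TR, 435 to 623.44 in DP and 817.8 to 1018.05 in SP (2.63 ± 0.16 over DP, limma adjusted p = 0.000158, and 1.74 ± 0.14 over SP, 0.000491). Itga4, the α4 integrin chain, was higher in IEL TR than IEL DP (1.34 ± 0.18, limma adjusted p = 0.0149) and in LP TR than both LP DP (1.15 ± 0.17, 0.00555) and LP SP (1.15 ± 0.13, 0.00249). Itga6, the α6 chain of laminin-binding integrins, was above IEL SP in IEL TR (2.34 ± 0.31, limma adjusted p = 0.0194) and above LP DP in LP TR (2.08 ± 0.37, 0.012). Cd5, an inhibitory T-cell receptor, was higher in LP TR than LP DP (1.52 ± 0.25, limma adjusted p = 0.00865) and LP SP (1.45 ± 0.24, 0.013). The list thus had 2 of 11 higher and 0 lower in both IEL comparisons, 4 higher in LP TR against DP and 3 against SP, beside the shares of all genes given for the same comparisons with the other tetraspanins.

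Igsf8, whose immunoglobulin-family product binds CD81 and CD9 directly, was lower in the epithelium. It had 75.87, 70.33 and 69.76 in IEL DP, against 218.53, 290.51 and 327.73 in LP DP (-1.92 ± 0.22, limma adjusted p = 0.00347). In SP it had 48.07, 71.34 and 43.27 in IEL, against 193.32, 331.39 and 398.71 in LP (-2.45 ± 0.33, limma adjusted p = 0.00614). In TR it had 1.05, 69.43 and 44.44 in IEL and 143.87, 197.72 and 284.89 in LP, with no overlap and without passing. Cd5 was higher in IEL DP than in LP DP (0.96 ± 0.23, limma adjusted p = 0.0483). No partner was called between DP and SP in either site, where 0.0583% of all genes were called in IEL and 0.291% in LP.

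**Figure D5:**
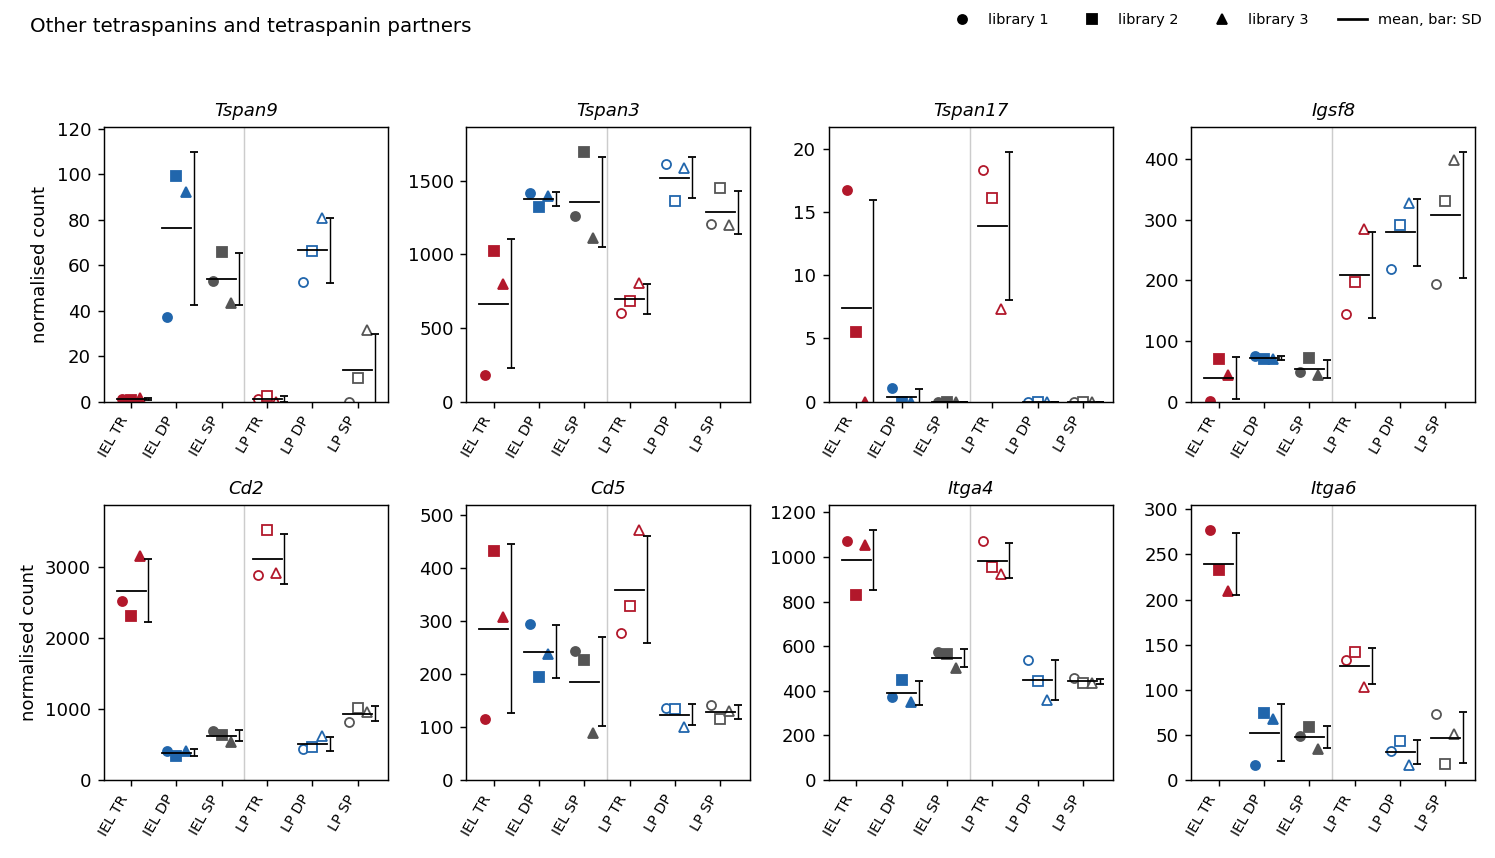
Tspan9, Tspan3, Tspan17 and the partners Igsf8, Cd2, Cd5, Itga4 and Itga6 in each of the 18 libraries in normalised counts on linear axes from 0, with marker shape for the library number, a line for the mean and a bar for the SD. Tspan9 is at 2.49 or below in every TR library, Cd2 is at 2302.94 or above in TR and at 1018.05 or below elsewhere, and Igsf8 is lower in IEL than in LP in each population.

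Of 8 genes of vesicles and lysosomes, where CD63 and its relatives travel, 8 were tested. Lamp2 was higher in IEL TR than IEL DP (1.24 ± 0.21, limma adjusted p = 0.0304), with 750.12, 717.69 and 636.97 against 258.59, 263.95 and 380.4. In LP TR against LP DP, Lamp1 was lower (-0.72 ± 0.15, limma adjusted p = 0.022) and Rab27a, which directs vesicle release, was higher (0.77 ± 0.16, 0.022). Of the 8 genes, 1 was thus higher and 1 lower in LP, where 11.3% of all genes were called. In IEL 1 was higher, where 4.13% were called. None of these calls repeated at the other site. The limma adjusted p over DP was 0.0848 for Lamp2 in LP, and 0.609 for Lamp1 and 0.637 for Rab27a in IEL. No other comparison called a gene of this list.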

How the data were processed

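The authors deposited 1 table of normalised counts, a signal that equals reads times a factor of the library: values were whole multiples of 1 step, within 0.1 of a step, for 100% of values in each library. How the factors were computed is not given in the sources used here. TopHat, HTSeq and mm10 are named per the submitters' processing notes, without versions, and the Nextera XT kit per the labels. Dividing by the step recovered 5093955 to 8851347 reads per library (median 5903164.5). PCR reads are not independent molecules, so intervals and floors of 3 reads cover counting error only. Coordinates and exon lengths are from GENCODE M21 (GRCm38), in which 36639 of 38392 identifiers were found.

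The test used log2(normalised count + 1). Genes with at least 10 in at least 3 of 18 libraries (15472) were tested with limma 3.58.1 in R 4.3.3 (trended, robust variance), each comparison fitted on its own groups, so that genes at 0 in all of these dropped out. A call is an adjusted p (Benjamini-Hochberg, over all genes tested) under 0.05. The script was tested on simulated data. An exact permutation test of 3 against 3 libraries cannot go below 0.1, and none is reported. Alternatives were a pseudocount of 0.5, no filter, equal library totals, 1 fit over all libraries, edgeR 4.0.16 and DESeq2 1.42.0 on recovered reads, the replicate number as a block, and leaving out each library. The members and gene lists were chosen with earlier results of these data known. All 10 members are named, with the listed genes called in a comparison (at most 6 per list) and the 5 genes closest in pattern to Tspan32 and to Cd81, leaving out members, predicted genes and receptor segments and requiring a mean of at least 50 in a group. Comparisons of TR with SP or DP, and site differences of TR set against theirs, give members no p, since the choice used TR levels.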

Additional observations from a re-analysis of the deposited data

Results flagged for a closer look

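Tspan32 moved in opposite directions between the sites in 2 populations: every IEL TR library was above every LP TR library, and every IEL SP library was below every LP SP library. The difference in TR did not pass (limma adjusted p = 0.0562), while that in SP did (0.0113). The site differences, IEL over LP, were 2.77 ± 0.28 apart on the log2 scale. This difference between TR and SP was not tested, because Tspan32 was chosen for its level in TR cells and the term was added after the values had been seen.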

How the results depend on the processing

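No fold change of a member that passed the test changed sign under the alternatives run, while some that did not pass did, such as Cd81 for IEL TR against LP TR (-0.51 to 1.21 without single libraries). For IEL DP against IEL SP, the 9 genes called became 19 without the filter, 17 with all 18 libraries in 1 fit, 132 with DESeq2, 1 with the replicate block and 0 to 5 without single libraries, and the members called became 1 with all 18 libraries and 1 with DESeq2. For LP DP against LP SP, 45 genes became 100 without the filter, 343 with DESeq2 and 10 to 24 without single libraries, and the 2 members became 1 with a pseudocount of 0.5, with all 18 libraries or with the replicate block, and 0 to 1 without single libraries. For IEL DP against LP DP, 1174 genes became 2252 with DESeq2 and 507 to 790 without single libraries, and the 1 member became 2 with DESeq2 and 1 to 2 without single libraries. For IEL SP against LP SP, 983 genes became 1923 with DESeq2 and 486 to 762 without single libraries, and the 3 members 2 to 3. For IEL TR against LP TR, 102 genes became 1008 with all 18 libraries, 929 with DESeq2, 0 with the replicate block and 0 to 192 without single libraries, and the 0 members became 1 with equal totals or DESeq2 and 0 to 1 without single libraries. The DP interaction gave 46 genes with DESeq2 and 0 to 0 without single libraries. For TR against other populations, 458 genes (IEL TR and SP) became 1799 with all 18 libraries, 1517 with DESeq2, 80 with the replicate block and 56 to 731 without single libraries. There 917 genes (LP TR and SP) became 1631 with DESeq2 and 503 to 677, 639 genes (IEL TR and DP) became 2170 with all 18 libraries, 1746 with DESeq2, 235 with the replicate block and 156 to 902, and 1740 genes (LP TR and DP) became 1141 to 1314 without single libraries. The causes of these shifts were not tested.

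Equal totals moved the median of all genes from -0.05 to -0.20 for IEL TR against IEL SP and from -0.06 to -0.24 for IEL TR against IEL DP, and the split of calls, higher to lower, from 237 and 221 to 168 and 240, and from 364 and 275 to 240 and 305. For IEL DP against LP DP the split moved from 521 and 653 to 644 and 468, with Cd53 lower under both. No pair of libraries with the same replicate number passed the cut of r 0.1 (45 pairs, r from 0.00053 to 0.0887, 0 over 0.1). Yet all 18 libraries were closest on average to their own number, so the cut does not show that the numbers carry no pairing. The main fits took no account of the numbers. With the number as a block, limma lost the calls of Tspan32 in LP DP against LP SP (adjusted p = 0.0597) and Cd81 in IEL SP against LP SP (0.0578). Counts near 0 in DP cells limit what can be said of Tspan32 and Cd81 there, and the animals behind the libraries are not named.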
